A study of Mus musculus with 4 samples.

Results

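Gpnmb and 7 further genes of the lipid-associated macrophage programme (Cd63, Spp1, Trem2, Cd9, Lgals3, Apoe and Lipa) were followed across macrophage arrays from mouse liver. They were taken by gene symbol from the array annotation, with the probe set of highest 4-array mean for each gene. Of the 8, 7 matched 1 of the 22180 genes named in that annotation. Spp1, the gene of osteopontin, was not matched and has no value here. All 7 reached a log2 level of at least 6, the floor used here, on at least 1 array, as 5306 genes did, and 6 of them reached it on every array. The genes were chosen with their values on these arrays in view, so what follows describes them and tests nothing.

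The cells were hepatic macrophages taken from mice of strain C57/BL6 at 48 h of reperfusion, when blood had flowed back into a liver made ischaemic. The design names 10 wild-type (WT) animals and 10 that carry an mPGES-1 knockout (KO) label. mPGES-1 is a prostaglandin E synthase and is encoded by Ptges. They were sorted by Ly6C, an antigen of recently recruited monocytes, into Ly6C-hi and Ly6C-low cells. Each of the 4 combinations of genotype and Ly6C fraction has 1 array, so no difference below has a replicate check. The sources used here do not give sex, age, how the knockout was made or whether mice were pooled on an array.

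Lipid-associated macrophages are cells that take up and digest lipid-rich debris, and they have been described in fat, in artery walls and in injured or steatotic liver. Trem2 is a surface receptor for lipids and lipoproteins that signals through the adaptor Tyrobp. Gpnmb and Cd63 are membrane proteins of lysosomes and late endosomes, Cd9 is a tetraspanin of the cell surface, and Lipa is the acid lipase that frees cholesterol and fatty acids in the lysosome. Apoe carries lipid out of the cell, and Lgals3 (galectin-3) and Spp1 are secreted proteins that bind glycans and integrins.

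The genotype is given as the array's label, because Ptges read higher under the KO label, at 6.32 against 5.65 in Ly6C-hi and 6.20 against 5.69 in Ly6C-low. The sources do not say whether its probes cover the deleted stretch, so it cannot check the label. Ly6c2 separated the fractions (7.70 and 3.84 in WT, 8.94 and 4.33 under the KO label). Of 12 general macrophage genes, all were at the floor on every array, with medians of 9.16, 8.41, 8.62 and 8.37 in WT Ly6C-hi, WT Ly6C-low, KO-labelled Ly6C-hi and KO-labelled Ly6C-low. The median of the 5306 genes differed between arrays, by -0.50 for KO label minus WT in Ly6C-hi, and 0.19 for the same in Ly6C-low, and for Ly6C-hi minus Ly6C-low by 0.31 in WT arrays and -0.38 in KO-labelled arrays. Differences are log2 values as deposited, and those called relative have this shift taken out. As a yardstick, differences between 2 arrays had a robust SD of 0.50 across genes, from the genotype by fraction split, which holds any true difference of that kind.

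**Figure D1:**
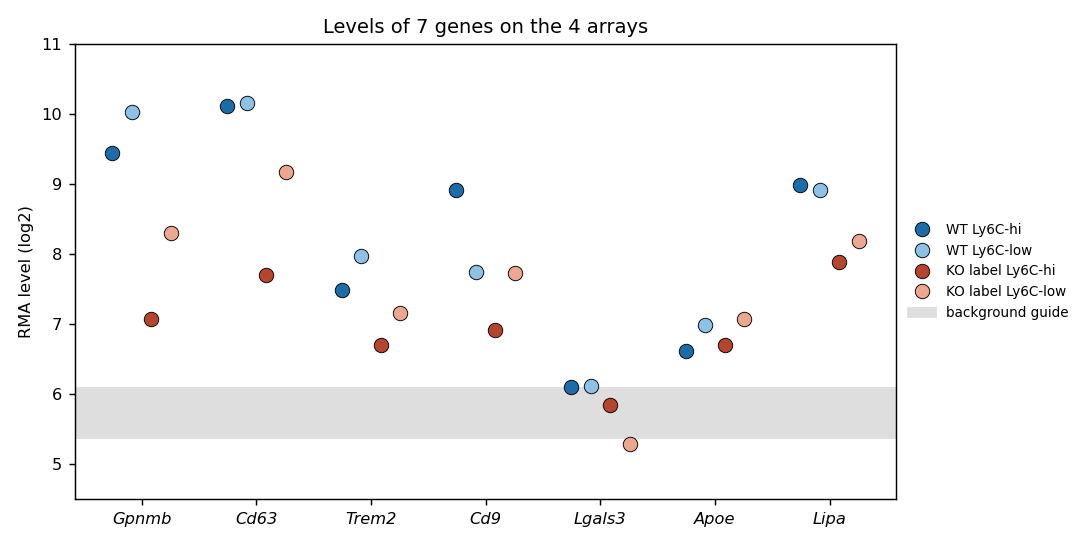
RMA level (log2, vertical axis) of the 7 measured genes on the 4 arrays, 1 point per array, with no error bars because each group is 1 array. The grey band, 5.38 to 6.08, spans, over the 4 arrays, the upper bound of the central 95% of 1447 chemosensory receptor genes, a guide to background. Gpnmb, Cd63, Trem2, Cd9 and Lipa are lowest on the KO-labelled Ly6C-hi array, Apoe is nearly level, and Lgals3 lies close to the band on all 4 arrays.

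Gpnmb was lower under the KO label in both fractions. WT Ly6C-hi read 9.44 and WT Ly6C-low 10.02, while KO-labelled Ly6C-hi read 7.07 and KO-labelled Ly6C-low 8.30. The WT arrays were thus above the KO-labelled ones whichever fraction is taken, and the full range of 2.95 was wider than that of 95.3% of the 5306 genes. The KO-labelled array was 5.14-fold lower in Ly6C-hi (a difference of -2.36, or -1.86 relative) and 3.29-fold lower in Ly6C-low (-1.72, or -1.91 relative). In order of increasing difference it was gene 71 of 4410 at the floor in Ly6C-hi and gene 1 of 4444 in Ly6C-low. In these bulk samples, fewer cells that express a gene and less of its RNA per cell cannot be told apart. The general macrophage genes had a median difference of -0.29 in Ly6C-hi (0.21 relative, so its direction depends on the scaling) and -0.19 in Ly6C-low (-0.38 relative).

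Cd63 followed Gpnmb most closely of all genes compared. It read 10.12 in WT Ly6C-hi and 10.16 in WT Ly6C-low, then 7.70 and 9.18 under the KO label. The WT arrays were level, the KO-labelled Ly6C-low array was intermediate and the KO-labelled Ly6C-hi array was lowest. The difference under the KO label was -2.42 in Ly6C-hi (5.36-fold lower, -1.92 relative). In Ly6C-low it was -0.98, just short of 2-fold, and -1.17 relative.

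Profile likeness was measured as the root mean square distance between log2 profiles over the 4 arrays, each centred on its own mean, among 4969 other genes at the floor. Predicted, RIKEN, small RNA, pseudogene, immunoglobulin, T cell receptor, olfactory and vomeronasal symbols were left out of these. A constant shift of an array does not alter this order. The 5 genes nearest to Gpnmb were Cd63 (0.27), the interleukin-7 receptor gene Il7r (0.31), the platelet factor gene Pf4 (0.35), Serpinb2, a plasminogen activator inhibitor (0.35), and Igf1, a growth factor (0.37). Il7r read 6.13 and 6.50 in WT and 4.40 and 5.14 under the KO label, in Ly6C-hi and Ly6C-low, and Igf1 read 7.34 and 7.94 against 5.54 and 7.07. Both KO-labelled values of Il7r and of Serpinb2 (4.04 and 5.25) lay below the background guide of their array, 6.08 and 5.53. So did the KO-labelled Ly6C-hi value of Igf1, so the distances to these genes are uncertain. For Cd63 the nearest were Serpinb2 (0.14), Igf1 (0.27) and Gpnmb (0.27). The other members lay further from Gpnmb, from 0.68 for Trem2 to 1.11 for Apoe.

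Of the 5306 genes, 18 (0.339%) read lower under the KO label by 2-fold or more in both fractions, and Gpnmb was the member among them. Relative to the median gene there were 26 such genes (0.49%), among them Gpnmb and Cd63. Being merely lower in both fractions was common, with 29.1% of genes and 6 of the 7 members, all but Apoe. On the relative scale it held for 26.3% of genes and 5 members, without Lgals3 and Apoe. The members were chosen on these comparisons, so the shares are given for scale only.

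**Figure D2:**
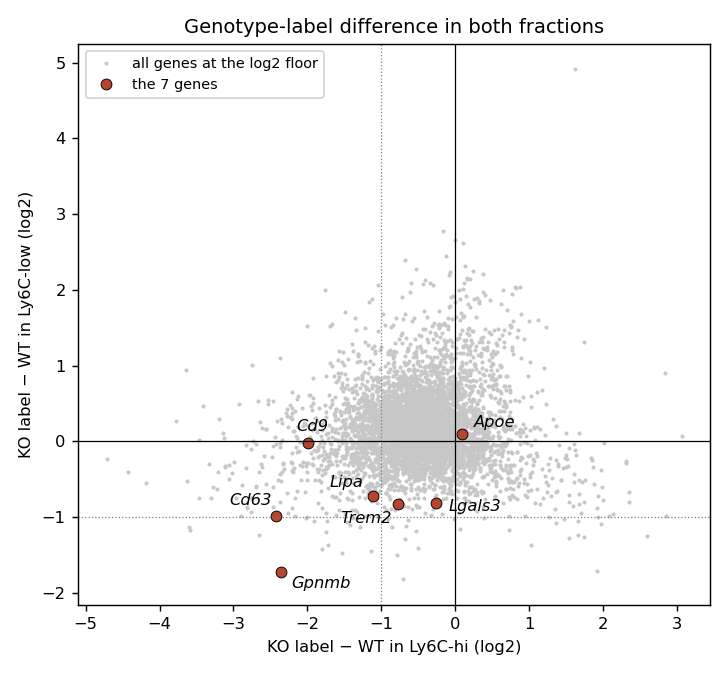
Difference KO label minus WT (log2) in Ly6C-hi, horizontal axis, against Ly6C-low, vertical axis, as deposited, for the 5306 genes at a log2 level of at least 6 on at least 1 array (grey) and the 7 members (red). Dotted lines mark 2-fold lower. Gpnmb lies past both lines at -2.36 and -1.72, Cd63 at -2.42 and -0.98, Cd9 at -2.00 and -0.02, and Apoe near the origin at 0.09 and 0.09.

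The promoters of the 5 members with the widest ranges are shown because, as deposited, each was lowest on the KO-labelled Ly6C-hi array. Relative to the median gene, Ly6C-hi minus Ly6C-low under that label was 0.08 for Lipa and -0.07 for Trem2, so neither was clearly lowest there. Each line holds 80 bases before and 20 bases from the annotated start, from RefSeq on GRCm38.p6, read 5′ to 3′ on the gene's strand. Capitals mark matches to the motifs named after the sequences, the first of which in Cd9 begins 1 base before the stretch shown.
Gpnmb, chr6:49036438-49036537, plus strand: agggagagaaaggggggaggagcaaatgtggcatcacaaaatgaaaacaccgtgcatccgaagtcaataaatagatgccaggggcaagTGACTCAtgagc
Cd63, chr10:128909265-128909364, plus strand: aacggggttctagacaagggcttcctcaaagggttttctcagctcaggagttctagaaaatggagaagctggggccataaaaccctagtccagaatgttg
Trem2, chr17:48346321-48346420, plus strand: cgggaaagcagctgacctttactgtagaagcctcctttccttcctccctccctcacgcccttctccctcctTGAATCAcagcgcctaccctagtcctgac
Cd9, chr6:125494741-125494840, minus strand: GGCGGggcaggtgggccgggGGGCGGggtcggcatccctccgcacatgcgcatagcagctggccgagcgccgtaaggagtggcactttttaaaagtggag
Lipa, chr19:34527455-34527554, minus strand: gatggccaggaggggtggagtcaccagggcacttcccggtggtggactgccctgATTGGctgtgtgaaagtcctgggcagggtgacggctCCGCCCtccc

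The motifs below were searched on both strands of the full RefSeq windows of 300 bases, 250 before and 50 after the start. All 8 members have a window, and Spp1 and Apoe have several, 11 in all. The AP-1 element TGANTCA matched in Gpnmb, from base 9 after the start, and in Trem2, from base -9, and in 7.81% of 32851 windows of all genes. The E-box CACGTG, the element of the MiT/TFE factors that drive lysosomal genes, is held by 7.15% of windows and was not among the letters of any member's window, nor was the M-box core TCATGTG (3.77%). The GC box GGGCGG matched in Cd9, Lgals3 and Lipa (35.7% of windows), and the CCAAT box CCAAT in Spp1, Trem2, Lgals3 and Lipa (37.4%). The TATA core TATAAA matched in Spp1, Apoe and Lipa (13.6%), and the ETS element GAGGAAGT in Spp1 alone (3.2%). The window of Cd63 held none of these letters. The motifs do not overlap each other in the printed stretches, and a match describes letters, not binding.

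Cd9 stood apart in the Ly6C-hi arrays. It read 8.91 in WT Ly6C-hi and 7.75 in WT Ly6C-low, then 6.92 and 7.72 under the KO label. The Ly6C-low arrays were level, while Ly6C-hi was the highest array in WT and the lowest under the KO label. The KO-labelled array was 3.99-fold lower in Ly6C-hi (-2.00, or -1.49 relative), against -0.02 in Ly6C-low. In WT the Ly6C-hi array was 2.24-fold above Ly6C-low (1.17, or 0.85 relative). A dimmer probe set of the gene read 4.07 to 4.25 on the 4 arrays, below the floor, and did not show these differences. With the mean of both probe sets the difference in Ly6C-hi was -0.94. The nearest profiles were those of Ints8 (0.12), the transglutaminase gene Tgm2 (0.12) and Abhd2 (0.13). Both KO-labelled values of Ints8 (4.43 and 5.30) and the KO-labelled Ly6C-hi value of Abhd2 (5.30) lay below the background guide of their array.

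Lipa, the lysosomal acid lipase, was lower under the KO label by less. It read 8.99 and 8.91 in WT Ly6C-hi and Ly6C-low, and 7.88 and 8.19 under the KO label. The 4 arrays fall into a WT pair and a lower KO-labelled pair, with 0.72 between them, 0.08 within the first and 0.30 within the second. The KO-labelled array was 2.15-fold lower in Ly6C-hi (-1.11, or -0.60 relative) and 1.65-fold lower in Ly6C-low (-0.72, or -0.92 relative). The nearest profiles were Med31 (0.04), the small GTPase gene Rab7b (0.05) and the lysosomal glycoprotein gene Creg1 (0.07). On the KO-labelled Ly6C-hi array Rab7b and Creg1 each read 5.92, just below its background guide of 6.08.

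Trem2, the receptor, had a similar but narrower step. WT Ly6C-hi read 7.48 and WT Ly6C-low 7.97, while KO-labelled Ly6C-hi read 6.70 and KO-labelled Ly6C-low 7.15. Ly6C-low was above Ly6C-hi under each label, and every KO-labelled array was below every WT array. Each step between neighbouring arrays (0.49, 0.33 and 0.45) was below the 0.50 yardstick. The differences under the KO label were -0.78 in Ly6C-hi and -0.82 in Ly6C-low, but -0.27 and -1.01 relative to the median gene.

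Lgals3 and Apoe, the secreted members, showed the smallest ranges. Lgals3 read 6.10 on the Ly6C-hi and 6.11 on the Ly6C-low array of WT, and 5.84 and 5.29 on those with the KO label. Both KO-labelled values lay below the background guide of their array, 6.08 and 5.53, so their size is uncertain. The difference under the KO label was -0.82 in Ly6C-low (-1.01 relative). In Ly6C-hi it was -0.26 as deposited and 0.24 relative, so its direction depends on the scaling.

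Apoe read 6.62 on the Ly6C-hi and 6.98 on the Ly6C-low array of WT, and 6.71 and 7.08 on those with the KO label. The 2 Ly6C-low arrays were slightly above the 2 Ly6C-hi arrays, and the range of 0.46 was wider than that of only 12.6% of genes. The difference under the KO label was 0.09 in each fraction, and relative to the median gene 0.59 in Ly6C-hi and -0.10 in Ly6C-low, where its direction depends on the scaling. Hepatocytes make Apoe too, and their transcripts were present on all arrays. Alb, for albumin, read 10.15, 10.94, 9.83 and 10.94 in the same order of arrays, and 7, 11, 7 and 9 of 13 hepatocyte genes were at the floor. Their part in the Apoe level was not tested.

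In counts, 4 of 7 members (Gpnmb, Cd63, Cd9 and Lipa) read lower under the KO label by 2-fold or more in Ly6C-hi, where 20.6% of 4410 genes were, and none was that much higher (2.34% of genes). Relative to the median gene 3 members were (6.92% of genes), without Lipa, and none was that much higher (5.8%). In Ly6C-low 1 of 7, Gpnmb, was at least 2-fold lower against 0.81% of 4444 genes, and none higher against 6.89%. Relative to the median gene 4 were lower, Gpnmb, Cd63, Trem2 and Lgals3, against 1.98%, with Trem2 and Lgals3 both at -1.01, and none was higher (4.68%). The members' median difference was -1.11 in Ly6C-hi, where all genes had -0.53, and -0.82 in Ly6C-low, where all genes had 0.15.

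The fractions were compared within each label. In WT, 1 of 7, Cd9, was higher in Ly6C-hi by 2-fold or more, where 20.3% of 4762 genes were, and none was that much lower (6.57%). The others lay between -0.58 for Gpnmb and 0.08 for Lipa. Under the KO label, 2 of the 6 members at the floor (Gpnmb at -1.23 and Cd63 at -1.48) were at least 2-fold lower in Ly6C-hi, where 20.7% of 4541 genes were, and none was that much higher (4.47%). Relative to the median gene, no member passed 2-fold in WT, higher (13.3% of genes) or lower (10.7%). Under the KO label Cd63 alone was lower on that scale (12.7% of genes) and none higher (10.9%). The Ly6C-hi minus Ly6C-low difference under the KO label less that in WT was -1.97 for Cd9, -1.44 for Cd63 and -0.64 for Gpnmb, beside a shift of -0.69 for the array medians. It was -0.38 for Lipa, -0.01 for Apoe, 0.04 for Trem2 and 0.56 for Lgals3. Relative to the medians its sign turned for Gpnmb (0.05), Lipa (0.31) and Apoe (0.69).

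**Figure D3:**
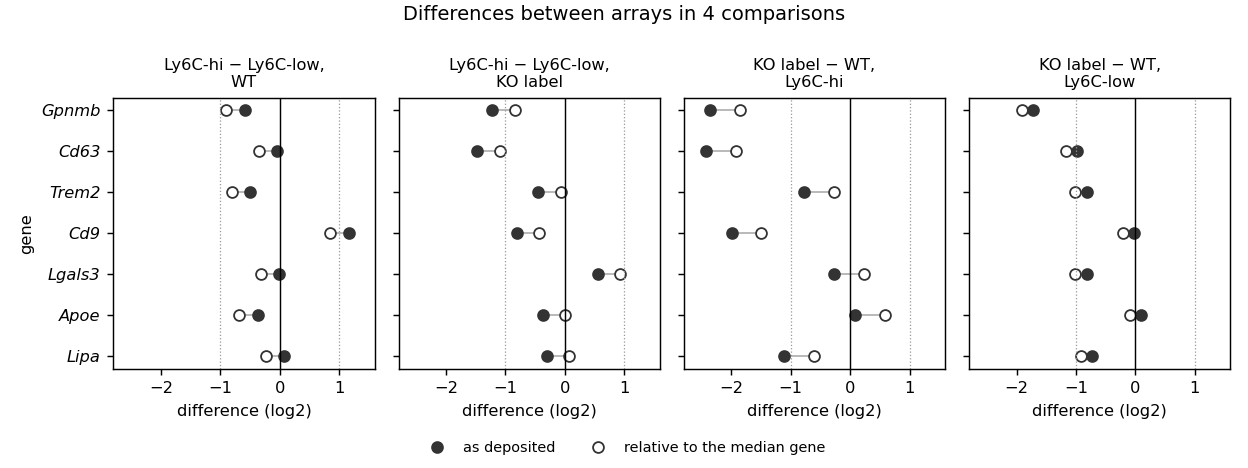
Log2 difference (horizontal axis) of each of the 7 genes in the 4 comparisons, as deposited (filled) and relative to the median gene (open), with dotted lines at 2-fold and no error bars because each value is 1 array minus 1 other. Gpnmb is left of zero in all 4 panels on both scales, while Lgals3 in KO label minus WT of Ly6C-hi changes side, as do Apoe in Ly6C-low, Lipa in WT and both Apoe and Lipa under the KO label.

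Other genes of lipid-associated macrophages read below WT for the most part, as did most genes of any kind in Ly6C-hi. For this and the lists that follow, counts in Ly6C-hi stand beside the 20.6% of all genes that were as low there (6.92% relative to the median gene) and the all-gene median of -0.53. Counts in Ly6C-low stand beside 0.81% of all genes at least 2-fold lower there and 6.89% at least 2-fold higher (1.98% and 4.68% relative). The list holds 37 genes, of which 35 were matched. In Ly6C-hi 8 of the 28 at the floor read lower than WT by 2-fold or more (5 relative), none was higher, and the median was -0.69 (-0.18 relative). The largest differences were those of the integrin gene Itgax (5.85 against 8.09 in WT), the fatty acid binding genes Fabp4 (6.13 against 8.18) and Fabp5 (9.10 against 10.96), and the fatty acid receptor gene Cd36 (6.71 against 8.64). In Ly6C-low 26 of 29 at the floor were below WT with a median of -0.45 (-0.64 relative), where the all-gene median was 0.15. Emp1 was the 1 of them at least 2-fold lower as deposited (6.47 against 7.59), where 0.81% of all genes were. On the relative scale 7 of 29 were, against 1.98% of all genes: Emp1, Cd68, Plin2, Slc37a2, Igf1, Lpl and Fabp5. The macrophage lysosomal gene Cd68 (-0.98), the lipid droplet coat gene Plin2 (-0.90) and the sugar phosphate exchanger gene Slc37a2 (-0.89) came next. Fabp4 and Cd36 are also genes of liver endothelium, and Itgax of dendritic cells.

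Genes of the Trem2 signalling list mostly went with the Ly6C fraction. Besides signalling partners, the list holds the related receptor genes Trem1, Trem3 and Treml2, and Ms4a4a and Ms4a6b. The largest Ly6C-hi minus Ly6C-low differences in WT were those of Trem1 (4.25), Trem3 (3.21) and Treml2 (2.16), so the counts below do not describe partners of Trem2 alone. Tyrobp, its adaptor, read 10.96 on the Ly6C-hi and 9.92 on the Ly6C-low array of WT, and 10.70 and 9.67 on those with the KO label. It was therefore higher in Ly6C-hi, the opposite order to Trem2, and -0.25 under the KO label in each fraction. Of 17 list members at the floor, 11 were higher in Ly6C-hi by 2-fold or more on the WT arrays (20.3% of all genes). On the KO-labelled arrays 8 of 17 were (4.47% of all genes), and none was that much lower under either label. Relative to the median gene 9 and 8 were higher, against 13.3% and 10.9% of all genes. The kinase gene Syk read 7.86, 6.17, 6.56 and 6.22 in the same order of arrays. Under the KO label 7 of 18 were at least 2-fold lower in Ly6C-hi, led by Trem1 (-2.76), Treml2 (-1.95), Trem3 (-1.84) and Syk (-1.30), and 0 of 14 in Ly6C-low. With the shift taken out, 3 were lower in Ly6C-hi, Trem1, Treml2 and Trem3, and 2 were higher, the membrane-spanning genes Ms4a4a (1.25) and Ms4a6b (1.11), with a median of -0.09. Trem1 and Trem3 are also abundant in neutrophils.

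Lysosomal genes did not share the size of the Gpnmb and Cd63 differences. In Ly6C-hi, 2 of 16 acid hydrolase and lipid transfer genes were lower under the KO label by 2-fold or more (median -0.41), the sialidase gene Neu1 at -1.22 and the peptidase gene Tpp1 at -1.01. Of the cathepsins 1 of 10 was, Ctsd, which encodes cathepsin D, at -1.17 (median -0.39). Of the membrane and proton pump genes 6 of 20 were (median -0.74), led by the pump subunits Atp6v0a1 (5.45 against 7.29) and Atp6v1c1 (5.51 against 7.08). These counts, taken relative to the median gene, were 0 of 16, 0 of 10 and, for those 2 pump subunits, 2 of 20. In Ly6C-low none of these 3 lists had a gene at the floor that was at least 2-fold different either way. Their medians were -0.17, -0.29 and -0.04. The pump subunit gene Atp6v0d2, also on the lipid-associated list, was below the floor on every array and so not counted. It read 3.99 against 5.93 in WT Ly6C-low (-1.93) and 3.06 against 4.49 in WT Ly6C-hi (-1.43). The acid hydrolase and cathepsin medians in Ly6C-hi were above 0 relative to the median gene, at 0.09 and 0.11.

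Among the MiT/TFE factors, which switch on lysosomal genes and of which Mitf is known to act on Gpnmb, Mitf read 7.23 and 6.77 in WT and 6.34 and 6.15 under the KO label, in Ly6C-hi and Ly6C-low. Its differences under the KO label were -0.89 and -0.62 (-0.38 and -0.81 relative). Tfe3 differed by -0.31 and 0.53 (0.19 and 0.34 relative), and Tfeb was below the floor on all arrays, between 4.16 and 4.72. Of 7 genes of this list at the floor in Ly6C-hi, 1 was lower under the KO label by 2-fold or more, Rragc, a nutrient-sensing GTPase (-1.26, or -0.76 relative).

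The sterol handling genes around Apoe and Lipa differed from list to list. Abca1, the pump that loads cholesterol onto apolipoproteins, read 8.15 and 7.77 in WT and 6.87 and 7.56 under the KO label, in Ly6C-hi and Ly6C-low. Mylip, which tags lipoprotein receptors for degradation, differed by -1.37 in Ly6C-hi and 0.46 in Ly6C-low. These were the 2 of 8 efflux and sterol sensing genes at least 2-fold lower in Ly6C-hi, with a median of -0.68 there (-0.18 relative) and 0.00 in Ly6C-low. Neither passed relative to the median gene, at -0.77 for Abca1 and -0.87 for Mylip. Of the lipoprotein receptors, the scavenger receptor gene Olr1 (7.36 against 9.71), Cd36 and the sorting receptor gene Sorl1 (-1.80) were at least 2-fold lower in Ly6C-hi. They were 3 of 8 on both scales, against 20.6% of all genes as deposited and 6.92% relative. Lrp1, a main receptor of Apoe, differed by 0.09 and -0.18. Of other apolipoproteins none of 3 in Ly6C-hi or 7 in Ly6C-low was 2-fold different, and Apoc1, the neighbour of Apoe in its gene cluster, read 6.80 and 8.24 in WT and 6.37 and 7.86 under the KO label.

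Of the other tetraspanins, 3 of 8 at the floor in Ly6C-hi were lower under the KO label by 2-fold or more, Cd82 (5.94 against 7.45), Cd53 (-1.08) and Cd81 (-1.02), and the median was -0.93 (-0.43 relative). Cd82 alone passed relative to the median gene (-1.01). In Ly6C-low their median was 0.30, and Tspan15 alone was at least 2-fold different (1.47), where 6.89% of all genes were that much higher. Of 4 other galectins at the floor none was 2-fold different under the KO label in either fraction, and Lgals1 read 9.77 and 10.68 in WT and 9.35 and 10.02 under the KO label. Of the receptors of osteopontin and Gpnmb, Cd44 was the 1 of 6 at least 2-fold lower in Ly6C-hi (8.15 against 9.39, or -0.74 relative), and Itga9 the 1 of 8 higher in Ly6C-low (7.68 against 6.46). The integrin chains Itgav and Itgb1 differed by -0.40 and -0.62 in Ly6C-hi and by -0.13 and 0.21 in Ly6C-low. Sterol synthesis and osteoclast genes had 3 or fewer genes at the floor in each comparison. With KO label against WT in Ly6C-hi, the sterol gene Sc5d (-1.30) and the osteoclast genes Mmp9 (-3.27) and Nfatc1 (-1.21) were at least 2-fold lower. Relative to the median gene Mmp9 alone passed (-2.77), with Sc5d at -0.79. Mmp9 is also among the neutrophil genes.

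**Figure D4:**
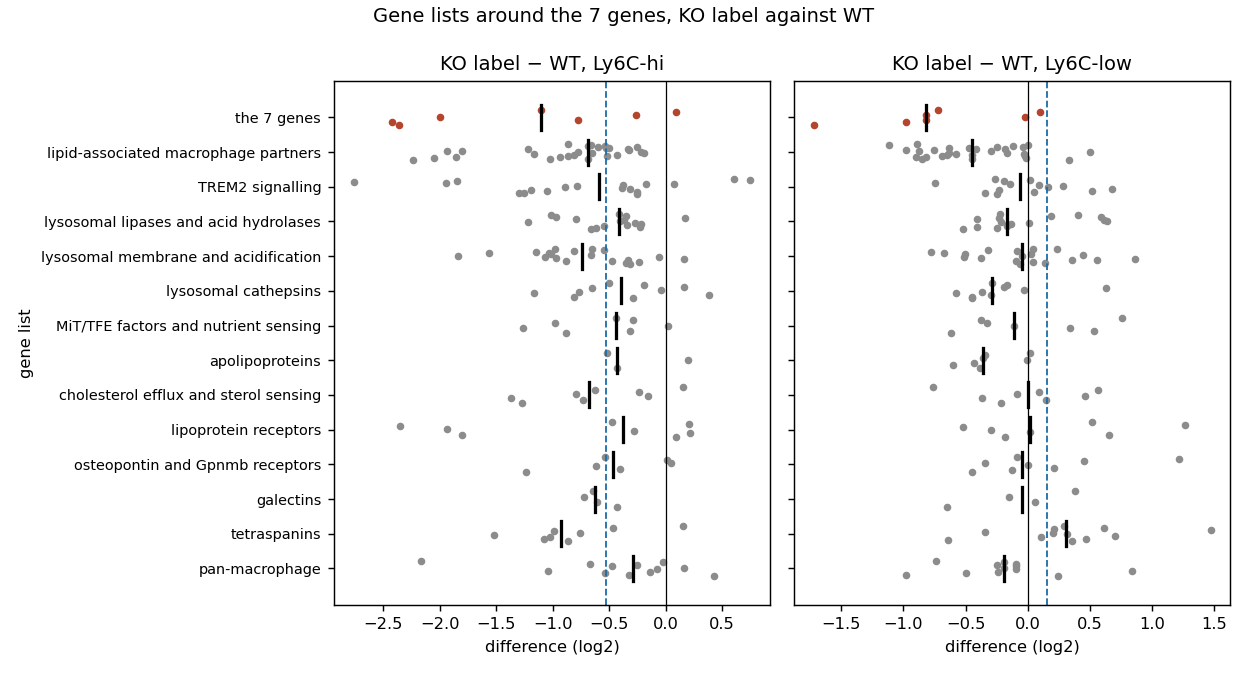
Log2 difference KO label minus WT, as deposited, in Ly6C-hi (left) and Ly6C-low (right) for the 7 genes (red) and the genes of 12 lists around them and the general macrophage list (grey), each point 1 gene at the floor, with black bars at the medians. The dashed blue line is the median of all genes compared, -0.53 and 0.15. The 7 genes have medians of -1.11 and -0.82.

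Markers of other cells moved between the same arrays. In Ly6C-hi 12 of 13 neutrophil genes at the floor were lower under the KO label by 2-fold or more (10 relative). Of all genes, 20.6% were (6.92% relative). The log2 of the summed neutrophil level was 13.69 in WT and 11.68 under the label (10.20 and 9.54 in Ly6C-low). Cd63 is a granule protein in neutrophils too, and the part of these cells in the Cd63, Cd9 and Gpnmb differences was not tested. Of the platelet genes at the floor, 3 of 4 in Ly6C-hi were lower under the KO label by 2-fold or more (2 relative). The other, Gp9, was higher (6.55 against 5.07 in WT). In Ly6C-low 2 of 3 were lower on both scales, where 0.81% of all genes were (1.98% relative). The platelet chemokine genes Pf4 (8.80 against 7.05 in Ly6C-hi, 9.84 against 8.64 in Ly6C-low) and Ppbp (7.33 against 6.18, 8.09 against 6.64) were among them in both fractions, and Itga2b, which defines platelets, read 4.83 to 5.03. The summed platelet level was 9.72, 10.77, 8.80 and 10.46 in the order WT Ly6C-hi, WT Ly6C-low, KO-labelled Ly6C-hi and KO-labelled Ly6C-low. Without Clec1b, which is also on the Kupffer list and read 9.58 against 8.69 in Ly6C-low, it was 9.54, 10.39, 8.69 and 9.32. Platelets carry Cd9 and Cd63, and their part was not tested.

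Sinusoidal endothelial genes were higher under the KO label in Ly6C-low, with 14 of 17 at least 2-fold higher (12 relative) and none lower. Of all genes, 6.89% were that much higher there (4.68% relative). The summed endothelial level was 13.86 against 12.47 in WT, while that of the 12 general macrophage genes was 12.64 against 12.87. The part of endothelial cells in the Ly6C-low differences of Gpnmb and the other members was not tested. In Ly6C-hi, 1 of 17 endothelial genes was at the floor in WT and none under the KO label. Of Kupffer cell genes 2 of 9 at the floor in Ly6C-low were lower under the KO label by 2-fold or more (3 relative). Of all genes, 0.81% were (1.98% relative). Vsig4 read 5.85 against 7.15, and 1 gene was at least 2-fold higher on both scales. The 1 higher was Cdh5 (9.86 against 8.35), which is also on the endothelial list. The summed Kupffer level was 11.35 against 10.93 in WT, and without Cdh5 and Clec1b, which other marker lists hold too, it was 9.84 against 10.24, so its direction turned. The summed level of recruited monocyte genes was 13.02 and 11.37 in WT Ly6C-hi and Ly6C-low and 12.55 and 11.25 under the KO label. None of 8 bile duct genes, of a cell type that expresses Cd9 and Spp1, reached the floor on any array. Stellate cell, B cell, T and NK cell and dendritic cell genes were at the floor in at most 5 of 12, 2 of 5, 1 of 8 and 2 of 6 on any array.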

How the data were processed

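RNA of sorted liver macrophages was run on Affymetrix Mouse Gene 2.0 ST arrays, starting from 5 ng, per the labels' protocols. Per the labels, the authors' deposited values are RMA expression on a log2 scale at gene level, from Expression Console, and the sources used here give neither its version nor the annotation build. The number of arrays, 1 per group, limits the precision.

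Of 41345 probe sets, 23521 had 1 symbol, 1814 several and 16010 none listed. Through Entrez ID, 23328 took a RefSeq symbol. The brightest probe set stood for each gene. Genes were compared where the brighter array reached 6 and counted past 2-fold. No test was run. Alternatives were centring, quantile normalisation, lowess (fraction 0.3), the mean of probe sets, a floor of 7 and no floor. The members and all lists (14 pathway lists without the members, 12 marker lists) were chosen with earlier results of these data known. Named genes are the profiles nearest to members that differed 2-fold, up to 4 of a pathway list with the largest difference, and partners of members. Vsig4, Alb, Pf4, Ppbp, Gp9, Itga2b, Cdh5, Clec1b, Ms4a4a, Ms4a6b, Igf1, Lpl and Fabp5 were also named after their values were seen, and the sums of marker lists without shared genes were added then. Steps were checked on simulated data. Python 3.11.15, numpy 2.4.6, pandas 2.3.3, statsmodels 0.14.6 and matplotlib 3.10.9 were used.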

Additional observations from a re-analysis of the deposited data

Results flagged for a closer look

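For 3 members the Ly6C-hi minus Ly6C-low difference had opposite signs on the WT and the KO-labelled arrays, and the gap between the differences was not tested, since each rests on 1 array per group. For Cd9 the gap was -1.97 (1.17 in WT, -0.81 under the KO label), for Lgals3 it was 0.56 (-0.0048 and 0.55, with both KO-labelled values below the background guide), and for Lipa it was -0.38 (0.08 and -0.30, but -0.23 and 0.08 relative to the median gene, with a gap of 0.31). Among the genes of the lists around them, with both differences at least 2-fold, it was -2.57 for Itgax (1.32 and -1.25) and -2.28 for the proton pump subunit gene Atp6v0a1 (1.27 and -1.01). The gap between the array medians was -0.69.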

How the results depend on the processing

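Array scaling moved the counts of members. The 1 member higher by 2-fold or more in Ly6C-hi of WT, Cd9, became 0 with centred arrays, quantile normalisation, lowess or the mean of probe sets. The 2 lower in Ly6C-hi than in Ly6C-low with the KO label became 1 with centred arrays, Cd63. The 1 lower than WT in Ly6C-low, Gpnmb, became 4 with centred arrays and 2 with lowess, Gpnmb and Lgals3. The other counts stayed within 1.5 times under the alternatives run. No member difference of at least 2-fold changed sign, and 8 of 35 differences changed sign over the 4 scalings, those of Lgals3, Apoe and Lipa given in the text and, for Gpnmb, Apoe and Lipa, the gap between the fraction differences. Gpnmb under the KO label ranged from -2.36 to -1.86 in Ly6C-hi and from -1.91 to -1.70 in Ly6C-low. Lgals3 was limited by its signal over background. With 1 array per group, no replicate could be left out and no paired analysis was possible.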

Other observations

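Genes that were at least 2-fold lower than WT under the KO label in both fractions formed a small set beside Gpnmb, listed here after their values were seen. They included the collagenase gene Mmp8 (-1.53 in Ly6C-hi, -1.48 in Ly6C-low), the metalloproteinase gene Adam8 (-1.80 and -1.43), the lectin gene Clec4d (-2.65 and -1.24), the cystine transporter gene Slc7a11 (-3.59 and -1.18), the inducible cyclooxygenase gene Ptgs2 (-3.60 and -1.13), the thrombospondin gene Thbs1 (-1.91 and -1.06) and the lipoxygenase gene Alox15 (-1.33 and -1.01). Mmp8, Clec4d and S100a8 (-1.38 and -1.02) are also neutrophil genes, whose markers differed between the same arrays. Relative to the median gene Alox15, S100a8, Ppbp, Cbr2, Tlr5, Aldh1a1 and Gnmt no longer passed in both fractions, while genes that now did included Fabp5 (-1.35 and -1.01), Igf1 (-1.30 and -1.07) and the lipid droplet gene Hilpda (-1.76 and -1.13).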
